A study of Mus musculus with 42 samples.

Results

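Of 15521 regions called as accessible in hippocampal neurons of euploid mice, 509 had no overlapping region in the list called from Ts65Dn mice, and these 509 missing peaks are described here against the 15012 euploid peaks that were kept. A peak counted as missing when no base of it lay under any of the 29195 peaks of the Ts65Dn list, so 3.28% of the euploid list was missing. The third list, with 30244 peaks, came from Ts65Dn;Brwd1+/- mice and was not used to choose the members. Accessible regions were mapped by ATAC-seq, in which a transposase cuts and tags open DNA, in NeuN+ nuclei sorted from whole frozen hippocampus of adult males, with 3 libraries per genotype on a mixed DBA/2J x B6EiC3Sn/J background. Ts65Dn mice carry an extra marker chromosome that adds an extra copy of distal chromosome 16 and of the part of chromosome 17 next to its centromere, and euploid animals of that background lack it. Ts65Dn;Brwd1+/- animals carry the same trisomy together with 1 inactive copy of Brwd1 (the repro5 allele), a triplicated gene that encodes a bromodomain and WD-repeat protein. Binding of SMARCA2/4 was mapped by ChIP-seq in whole male hippocampus at 6 to 8 weeks of age, from 4 immunoprecipitated and 4 input libraries per genotype that each pooled one hippocampus from a pair of animals. RNA was sequenced from neuronal cultures of E16 forebrain, labelled as pooled from both sexes and treated with AraC against glia, with 3 libraries per genotype and 17270070 to 25892802 counts assigned to genes in each.

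Nucleosomes block most regulatory DNA, and the parts of the genome that a transposase can reach are mainly promoters, enhancers and insulator sites. Promoters rich in CpG are open in nearly every cell, whereas the accessible sites within introns and between genes are largely enhancers and differ between cell types. SMARCA2 and SMARCA4 are the alternative ATPases of the BAF complex, which slides and evicts nucleosomes with the energy of ATP and has a neuron-specific subunit composition after the last division of neuronal progenitors.

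Each peak list holds 1 row per region with a fold enrichment over background and a q-value, and each list is a single table per genotype, so that no spread between animals can be given for any peak and no test between genotypes is possible. Percentages of peaks are given with Wilson 95% intervals, which cover counting error only. A peak absent from a list is a peak that did not pass the caller's threshold there, and the read depth behind each list is not known. The weakest q-value was 0.00287 in the euploid list and 0.000916 in the Ts65Dn list. Chromatin that is less open in every nucleus and fewer nuclei of the kind in which it is open cannot be told apart in such sorted pools.

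Sequences of 7 missing peaks are shown because they include the strongest missing peak and another strong intergenic one, introns of named neuronal genes, a site with a SMARCA2/4 peak and several motif matches, and a tandem repeat. All are from the plus strand of mm10 (GRCm38, RefSeq), in lower case, with capitals for matches on either strand to any of 12 short motifs: AP-1 TGANTCA, CRE TGACGTCA, CTCF CAGGNGGC, the NEUROD-type E-box CAGATG, MEF2 CTANNNNTA, RFX GTTGCCA, EGR GTGGGCG, SP/KLF GGGCGG, SOX ACAAAG, the NFI site TGCCAA, ETS CCGGAAG and POU ATGCAAAT.
Intergenic, chr2:3050135-3050385, the strongest missing peak: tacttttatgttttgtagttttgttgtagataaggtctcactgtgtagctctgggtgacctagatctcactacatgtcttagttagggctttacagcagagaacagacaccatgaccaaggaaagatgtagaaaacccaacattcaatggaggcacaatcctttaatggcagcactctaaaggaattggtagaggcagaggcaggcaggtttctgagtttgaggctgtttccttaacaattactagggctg
Intergenic, chr8:55539400-55539688: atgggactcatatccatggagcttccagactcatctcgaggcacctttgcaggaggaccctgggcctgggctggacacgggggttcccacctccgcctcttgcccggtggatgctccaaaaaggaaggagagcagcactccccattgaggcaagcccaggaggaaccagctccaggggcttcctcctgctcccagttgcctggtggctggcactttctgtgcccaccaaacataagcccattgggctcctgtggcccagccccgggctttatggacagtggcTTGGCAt
Gpc6 intron, chr14:117383276-117383519: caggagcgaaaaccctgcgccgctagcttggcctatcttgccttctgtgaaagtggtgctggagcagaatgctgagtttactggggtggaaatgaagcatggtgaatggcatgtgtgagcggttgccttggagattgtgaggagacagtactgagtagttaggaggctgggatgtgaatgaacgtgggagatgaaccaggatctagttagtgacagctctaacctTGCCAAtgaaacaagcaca
Plcb4 intron near a transcript start, chr2:135988556-135988831: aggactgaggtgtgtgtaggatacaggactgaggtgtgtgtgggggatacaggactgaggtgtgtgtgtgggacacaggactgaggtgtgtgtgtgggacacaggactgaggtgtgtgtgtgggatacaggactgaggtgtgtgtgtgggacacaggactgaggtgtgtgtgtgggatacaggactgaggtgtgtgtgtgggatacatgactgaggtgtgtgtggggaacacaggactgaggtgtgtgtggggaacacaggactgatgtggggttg
Pde4d intron, chr13:109609863-109610137: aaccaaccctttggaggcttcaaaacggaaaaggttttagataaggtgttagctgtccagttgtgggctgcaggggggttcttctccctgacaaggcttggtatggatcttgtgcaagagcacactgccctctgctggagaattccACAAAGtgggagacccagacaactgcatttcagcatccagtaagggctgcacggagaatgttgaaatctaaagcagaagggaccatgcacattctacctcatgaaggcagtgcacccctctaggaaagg
Mtmr3 intron, chr11:4571625-4571858: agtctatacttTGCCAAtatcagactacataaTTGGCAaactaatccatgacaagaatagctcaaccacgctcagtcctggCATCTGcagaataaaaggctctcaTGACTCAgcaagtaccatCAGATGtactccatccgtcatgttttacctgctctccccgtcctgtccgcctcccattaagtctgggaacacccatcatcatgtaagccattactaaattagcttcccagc
Syt1 intron, chr10:108929669-108929951: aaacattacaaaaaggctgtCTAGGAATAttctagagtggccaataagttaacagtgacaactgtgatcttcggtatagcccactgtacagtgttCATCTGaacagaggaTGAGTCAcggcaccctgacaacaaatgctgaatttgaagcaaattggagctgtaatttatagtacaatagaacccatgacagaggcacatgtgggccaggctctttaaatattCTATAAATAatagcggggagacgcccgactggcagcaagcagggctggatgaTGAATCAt
No motif of the set occurred in the first of these, of which 64.1% was marked as repeat. The Plcb4 sequence is a tandem array in which the 10 letters gactgaggtg occur 10 times. Mtmr3 held 5 matches, to the AP-1 motif, the NEUROD-type E-box and the NFI site. In Syt1 the matches were to AP-1, MEF2 and the E-box.

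Missing peaks were weak peaks of the euploid list. Their fold enrichment had a median of 3.35 and ran from 1.94 to 6.91, whereas kept peaks had a median of 4.07 and reached 28.8. As the members were chosen from these same lists, this is a description. The share of euploid peaks that was missing was 15.4% (12 of 78, 9.03 to 25) below a fold enrichment of 2.5, 7.03% (223 of 3172) between 3 and 3.5, 1.60% (38 of 2382) between 4 and 4.5 and 0.159% (6 of 3777) at 5 or more. Missing peaks were also short. Their median length was 223 bases against 344 in kept peaks, and 13.9% of them (71 peaks) had exactly 200 bases, the shortest length in the list, against 2.62% of kept peaks.

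Because strength differed so much, kept peaks are given below after weighting. They were put into bins of fold enrichment 0.25 wide, and each bin counted in proportion to its missing peaks, which gave both sets a median fold enrichment of 3.35. With that weighting the kept peaks still had a longer median length, at 271 bases, and 5.45% of them had 200 bases.

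In the Ts65Dn;Brwd1+/- list, 260 of the 509 missing peaks were present, or 51.1% (46.7 to 55.4). Of kept peaks of the same strength 95.8% (95.3 to 96.3) were present. With the Ts65Dn list shortened to the 15521 peaks with the lowest q-values, the euploid number, 2710 euploid peaks were missing and 82.0% of them were present in Ts65Dn;Brwd1+/-, so both values depend on how far down that list goes. Counted the other way, 596 euploid peaks (3.84%) had no Ts65Dn;Brwd1+/- peak, and the 249 peaks missing in both lists made up 48.9% of those missing in Ts65Dn and 41.8% of those missing in Ts65Dn;Brwd1+/-.

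Presence in Ts65Dn;Brwd1+/- changed little over the middle range of euploid strength. It was 50.6% (43 of 85, 40.2 to 61.0) at a fold enrichment of 2.5 to 3, 53.8% (47.3 to 60.2) at 3 to 3.5, 51.9% (43.5 to 60.1) at 3.5 to 4 and 50.0% (34.8 to 65.2) at 4 to 4.5. In the thinly filled classes at the ends it was 3 of 12 peaks below 2.5 and 1 of 6 at 5 or more. The intervals of all classes overlap. Median euploid fold enrichment was 3.35 both in the 260 peaks present there and in the 249 absent from both. Where present, the Ts65Dn;Brwd1+/- peak had a median fold enrichment of 3.30 (1.93 to 7.06), below the 3.69 of kept peaks of the same euploid strength.

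**Figure D1:**
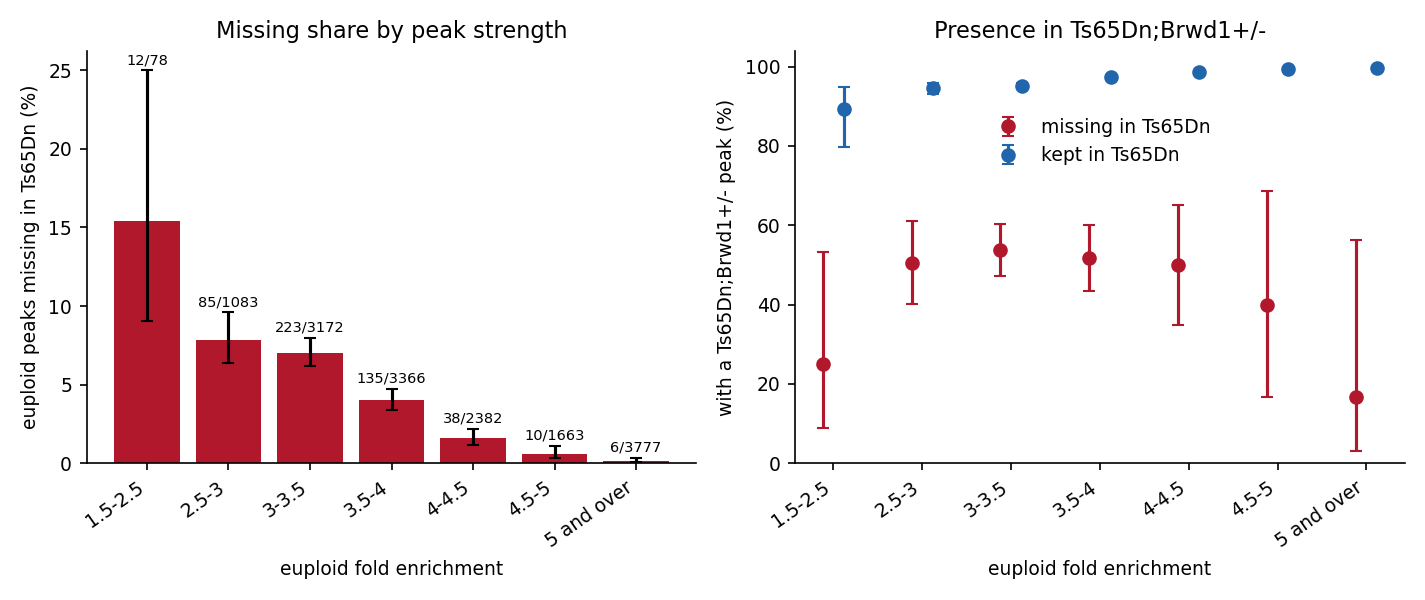
Left, percentage of euploid ATAC peaks with no overlapping Ts65Dn peak against the euploid fold enrichment, with missing and total peaks above each bar. Right, percentage of missing (red) and kept (blue) peaks that overlap a Ts65Dn;Brwd1+/- peak in the same classes. Bars and lines through points are Wilson 95% intervals. The missing share goes from 15.4% in the weakest class to 0.159% in the strongest, and presence of missing peaks stays near 50% in the 4 classes between 2.5 and 4.5.

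The missing peaks lay away from gene starts. In the submitters' annotation, peaks with their centre within 250 bases of a gene start are proximal promoters, those up to 1000 bases away Promoter1k and those up to 3 kb away Promoter3k, and the rest of a gene is gene body. Of the missing peaks 85 were proximal promoters, or 16.7% (13.7 to 20.2), against 41.3% of kept peaks of the same strength and 56.4% of all kept peaks. Gene bodies held 162 (31.8%, against 22.7% weighted) and intergenic sequence 167 (32.8%, against 17.6%). Promoter1k and Promoter3k held 57 and 37, which is 11.2% and 7.27%, close to the weighted kept shares of 11.6% and 6.76%.

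Seen per region, 0.993% of the 8557 euploid proximal promoter peaks were missing, against 6.17% of 2624 gene body peaks and 7.04% of 2372 intergenic peaks. The missing peaks also lay farther out, with a median distance of 15832.5 bases from their centre to the nearest start of a protein-coding transcript in GENCODE M21, against 911 bases in the weighted kept peaks. More than 50 kb from any such start lay 137 missing peaks (26.9%, 23.2 to 30.9), against 14.9% of weighted kept peaks.

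Peaks absent from both trisomic lists were the most distal. Their share at proximal promoters was 13.3% (9.59 to 18) against 20% (15.6 to 25.3) in those present in Ts65Dn;Brwd1+/-. Intergenic sequence held 38.6% (32.7 to 44.7) of the former and 27.3% (22.3 to 33.0) of the latter, and 33.3% against 20.8% were over 50 kb from a protein-coding start. The intervals at proximal promoters and in intergenic sequence overlap, and those beyond 50 kb do not. By region, presence in Ts65Dn;Brwd1+/- was 61.2% (50.5 to 70.8) at proximal promoters, 53.1% (45.4 to 60.6) in gene bodies and 42.5% (35.3 to 50.1) in intergenic sequence.

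**Figure D2:**
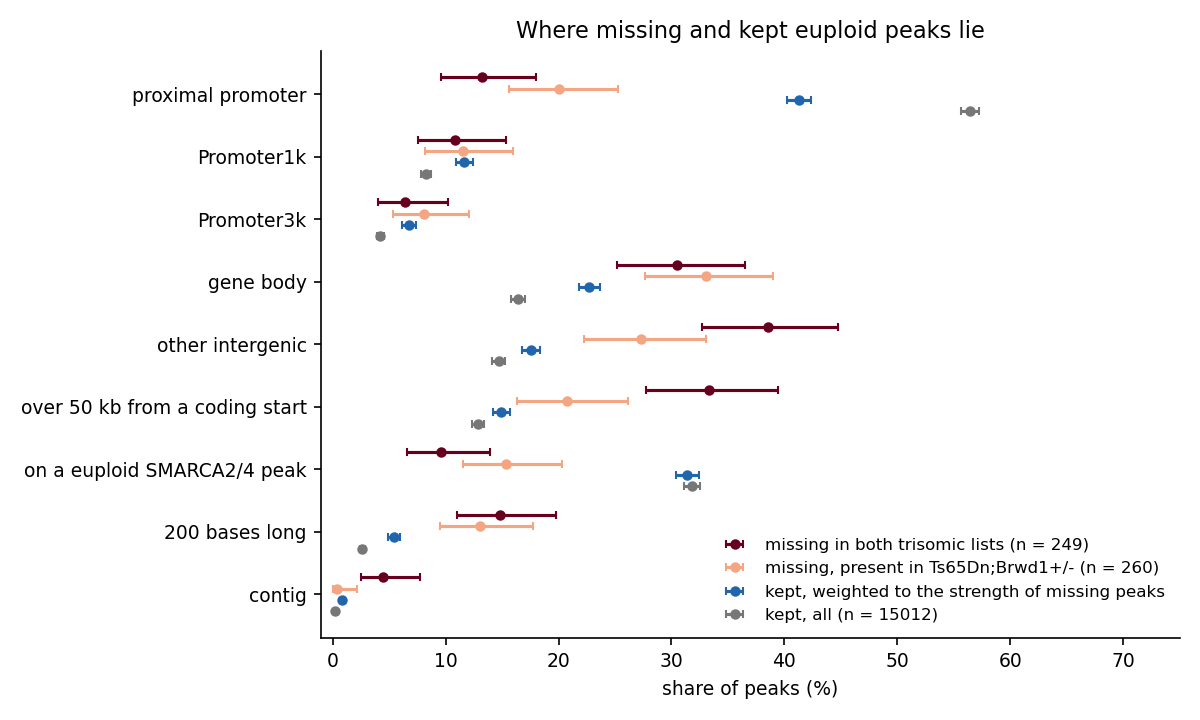
Percentage of peaks in each annotated region or with each feature, for missing peaks absent from both trisomic lists, missing peaks present in Ts65Dn;Brwd1+/-, kept peaks weighted by fold enrichment and all kept peaks. Lines are 95% intervals for counting error. Proximal promoters make up 13.3% and 20% of the 2 kinds of missing peaks against 41.3% of weighted kept peaks, and SMARCA2/4 peaks lie on 9.64% and 15.4% against 31.4%.

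Binding of SMARCA2/4 was less often found on missing peaks. The euploid ChIP-seq list, with 22667 peaks, overlapped 64 of them, or 12.6% (9.97 to 15.7), against 31.4% (30.4 to 32.4) of kept peaks of the same strength. The share of missing peaks was 20.3% with the Ts65Dn list shortened to the euploid number, and 19.4% when a SMARCA2/4 peak within 500 bases counted, settings under which the kept share was not recomputed. The lower share was seen at promoters and elsewhere. At proximal promoters 14.1% (12 of 85, 8.26 to 23.1) of missing and 31.6% of weighted kept peaks had a euploid SMARCA2/4 peak, and elsewhere on the chromosomes 11.9% (49 of 412, 9.11 to 15.4) and 30.4%. Among the peaks recovered in Ts65Dn;Brwd1+/- the share was 15.4% (40 of 260) and among those absent from both 9.64% (24 of 249), with overlapping intervals.

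The trisomic ChIP-seq lists were far shorter, with 1290 peaks in Ts65Dn and 1873 in Ts65Dn;Brwd1+/-. They touched 12 missing peaks (2.36%) and 17 missing peaks (3.34%), against 1.92% and 3.24% of weighted kept peaks. Of these 17, 15 lay on peaks absent from both trisomic ATAC lists. Only 3 missing peaks were under a SMARCA2/4 peak in all 3 lists. One of them, in an intron of Col23a1 (chr11:51455563-51455885, collagen of a transmembrane kind), was 98.0% repeat in its central 200 bases.

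Among the strongest missing peaks on a euploid SMARCA2/4 peak were a promoter of Rasal2, a Ras GTPase-activating protein (chr1:157256672-157256875, ATAC fold enrichment 4.19, SMARCA2/4 2.91), and introns of Mtmr3, a phosphoinositide phosphatase (3.87 and 2.91), Reep3, which clears membrane from mitotic chromosomes (chr10:67048034-67048254, 3.80 and 4.52), Nek7, a kinase of the inflammasome (chr1:138496989-138497220, 3.78 and 3.77), and Rtn4rl1, a Nogo receptor homologue (chr11:75220165-75220398, 3.77 and 3.08). Of these 5 peaks, that of Reep3 alone was also absent from Ts65Dn;Brwd1+/-. Stronger members of this kind, intergenic on chromosome 18 (5.44), in Col23a1 (4.77) and on the contig JH584304.1 (4.32), were absent there too. Those in introns of D430041D05Rik (3.86) and Mkl2 (3.69) were present. Another, 663 bases before a start of St18, a zinc finger transcription factor (chr1:6729261-6729516, 3.77 and 3.40), lay 29 bases from a Ts65Dn peak. A promoter of Kitl, the ligand of the receptor Kit (chr10:100015711-100015917, 3.59 and 3.02), lay 94 bases from one. The peaks of St18 and Kitl were also absent from Ts65Dn;Brwd1+/-.

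Most missing peaks were not shifted neighbours of a Ts65Dn peak. The nearest Ts65Dn peak was at most 100 bases away for 27 members (5.30%), at most 500 bases away for 73 (14.3%) and at most 10 kb away for 203 (39.9%), and the median distance was 15689 bases. For 3 members, all on unplaced contigs, the Ts65Dn list had no peak on the same sequence. The 73 near ones resembled the other 436 in presence in Ts65Dn;Brwd1+/- (52.1% and 50.9%) and had a euploid SMARCA2/4 peak in 23.3% (15.1 to 34.2) against 10.8% (8.20 to 14).

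**Figure D3:**
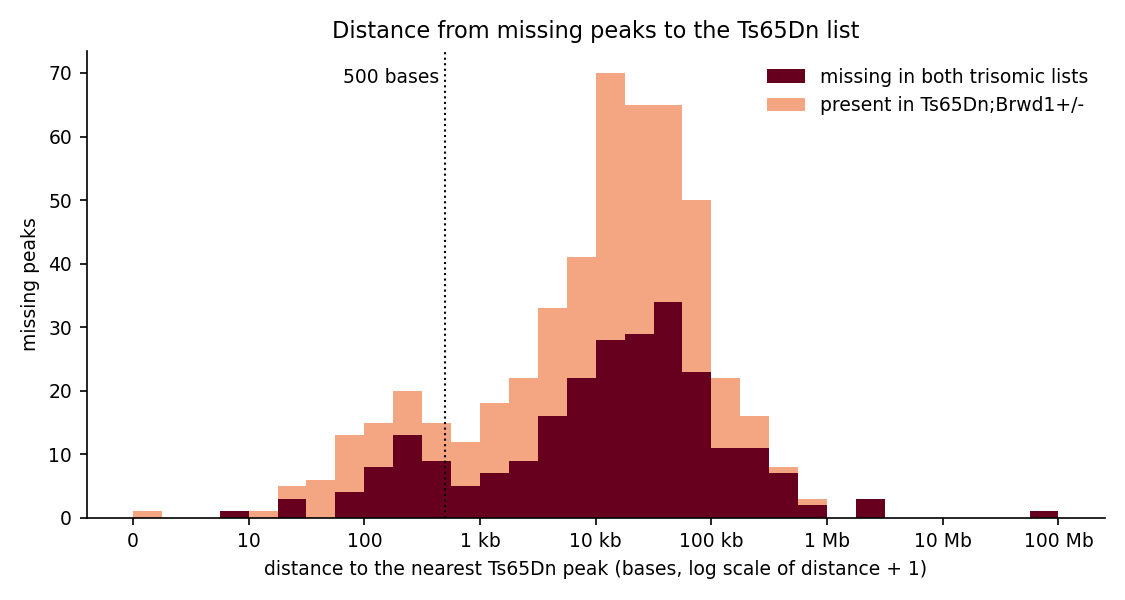
Number of missing peaks by the distance from their edge to the nearest Ts65Dn ATAC peak, on a log scale, for peaks absent from both trisomic lists (dark) and peaks present in Ts65Dn;Brwd1+/- (light), stacked. The dotted line marks 500 bases, within which 73 of the 509 peaks lie, and most of the others are between 1 kb and 100 kb away.

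At the edge of the definition, peaks on both sides were alike in strength. Closest inside was a promoter peak of Mib1, a ubiquitin ligase of Notch ligands, which abutted a Ts65Dn peak at 0 bases (fold enrichment 3.03). Next were a peak in the promoter of Tubgcp4, a gamma-tubulin complex subunit, which lay 5 bases from a Ts65Dn peak (fold enrichment 3.23), and peaks near Ubr3 (10 bases, 2.77), Vps29 (17 bases, 2.97), Kcng3 (23 bases, 2.84) and Grm7 (24 bases, 2.90). Just outside were peaks near Bhlhe22, a transcription factor of cortical projection neurons, which shared 2 bases with a Ts65Dn peak (2.88), and near Slc30a7 (6 bases, 2.55), Dido1 (11 bases, 3.02) and Far2 (22 bases, 3.09).

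The strongest missing peaks were mostly repeats or far from genes. The peak with the highest fold enrichment, 6.91, was intergenic on chromosome 2, 63964 bases from the nearest protein-coding start, that of Fam171a1, and 67798 bases from any Ts65Dn peak. It was also absent from Ts65Dn;Brwd1+/-. Second was a peak in an intron of Cobl, which encodes an actin nucleator of dendrites (chr11:12374977-12375287, fold enrichment 5.96). It was present in Ts65Dn;Brwd1+/- with a fold enrichment of 5.11 and lay 1256 bases from a Ts65Dn peak. The intergenic peak on chromosome 8 shown above (5.13) had no repeat and 62.5% GC in its central 200 bases, and it was 191254 bases from the nearest Ts65Dn peak.

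Gpc6, a cell-surface glypican that astrocytes secrete to recruit AMPA receptors, had a missing peak in an intron with a fold enrichment of 5.02, absent from both trisomic lists. Plcb4, a phospholipase C that acts downstream of metabotropic glutamate receptors, had both of its euploid peaks among the missing ones, with fold enrichments of 4.71 and 4.32. Both were present in Ts65Dn;Brwd1+/-, at 4.61 and 2.88. The Ts65Dn list held 2 other peaks of that gene.

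Of the 12 strongest members, 11 could be read from the genome, and 7 of those had repeat over more than 50% of their central 200 bases. They include peaks near the predicted genes Gm26870 (chr9:3018284-3018488, 4.74) and Gm10717 (chr9:3027055-3027270, 4.61), at the pericentromeric end of chromosome 9. In the window from 3 to 4 Mb there, 5 of 15 euploid peaks were missing. On the contig JH584304.1 it was 8 of 21, and on all contigs 12 of 42 (28.6%, 17.2 to 43.6). Short reads placed in such sequence can belong to several copies, so these members are uncertain.

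Proximal promoters among the members belonged to genes of varied function. The strongest was that of Adamtsl1, a secreted matrix protein (chr4:86053786-86054004, fold enrichment 4.39), which was present in Ts65Dn;Brwd1+/- at 3.77. A promoter of Reps2, an endocytosis adaptor (chrX:162643570-162643792, 4.29), was absent from both trisomic lists and held the SP/KLF motif. Promoters of Gxylt2, a xylosyltransferase of Notch (chr6:100704536-100704815, 4.06), and of Ccnb2, a mitotic cyclin (chr9:70421485-70421687, 3.77), were present in Ts65Dn;Brwd1+/- at 2.90 and 3.64. That of Dsp, the desmosomal linker desmoplakin (chr13:38151361-38151562, 3.77), was absent from both and lay 283 bases from a Ts65Dn peak.

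The triplicated segment held few members. It was taken as chromosome 16 from Mrpl39 to the telomere and chromosome 17 up to Pde10a. Of 156 euploid peaks in it 3 were missing, or 1.92% (0.656 to 5.50), against 3.88% of peaks elsewhere at the same fold enrichment, a difference within counting error. One was near the pseudogene Pisd-ps2 (chr17:3082315-3082514, 3.38), and the other two were intergenic on chromosome 16 (chr16:90629455-90629725, 3.15, and chr16:90712674-90712885, 2.48) and were present in Ts65Dn;Brwd1+/-. Among whole chromosomes the missing share ran from 1.08% (10 of 926) on chromosome 7 to 5.11% (36 of 705) on chromosome 13, leaving aside chromosome Y with 2 euploid peaks.

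Missing peaks were spread over many genes. A gene was assigned to 341 of them, which named 329 genes. Of these, 11 had 2 or more missing peaks. Pde4d, a cAMP phosphodiesterase, had 3, 1 at a promoter (chr13:109116334-109116558, 2.96) and 2 in introns (4.49 and chr13:109278774-109278990, 3.14), out of 11 euploid peaks, and it still had 18 peaks in Ts65Dn. Chl1, a neural adhesion molecule, lost 2 of 4 (chr6:103558850-103559110, 3.66, and chr6:103682990-103683192, 3.87). For Disc1, a scaffold linked to psychiatric illness, it was 2 of 5 (chr8:125067720-125067937, 3.67, and chr8:125084580-125084803, 3.02), both absent also from Ts65Dn;Brwd1+/-. Myt1l, a repressor of non-neuronal genes, had 2 of 9 missing (chr12:29526233-29526627, 3.37, and chr12:29639798-29639999, 2.85), and both were present in Ts65Dn;Brwd1+/-. In Disc1 and Myt1l the Ts65Dn list held more peaks in all than the euploid one, with 8 and 20.

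Genes of synapses and excitability mostly had single members in introns. Of 39 glutamate and GABA receptor genes, 30 had a euploid peak and 4 a missing one, which were the AMPA receptor subunits Gria1 (chr11:57310941-57311183, 3.30) and Gria2 (chr3:80801052-80801542, 3.06, in an exon), the delta receptor Grid1 (chr14:35049287-35049493, 2.99) and the presynaptic metabotropic receptor Grm7 (chr6:111372811-111373012, 2.90). That of Gria2 alone was present in Ts65Dn;Brwd1+/-, and those of Gria1 and Gria2 lay on a euploid SMARCA2/4 peak. Receptor genes took 0.786% of missing peaks and 0.688% of weighted kept peaks, so the list was not set apart.

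Voltage-gated channel genes had 5 missing peaks in 4 of 28 genes with a euploid peak. These were the calcium channel subunits Cacna1a (chr8:84529578-84529785, 3.00), Cacna1e (chr1:154704955-154705156, 2.81, and chr1:154786320-154786520, 2.63) and Cacnb4 (chr2:52461343-52461600, 3.45) and the potassium channel Kcnq3 (chr15:66093609-66093888, 3.17). Synaptic adhesion genes had 4 of 34, among them Cadm1 (chr9:47605511-47605834, 2.93), Lsamp (chr16:41847015-41847226, 3.45) and Ptprt (chr2:162430184-162430416, 3.14), and the peaks of Lsamp and Ptprt were present in Ts65Dn;Brwd1+/- at 3.52 and 4.49. Vesicle and scaffold genes had 3 of 33, in Dlgap2, Magi2 and the calcium sensor Syt1 (3.35). Axon guidance genes had 4 of 29, in Plxna4, Sema5a, Slit3 and Unc5d. Activity-regulated genes had 2 of 25, upstream of Dusp6 (chr10:99261734-99262005, 3.16) and of Nr4a2 (chr2:57116752-57117004, 2.89), and neuronal transcription factors 1 of 27, in Rfx3 (chr19:27768475-27768676, 3.77). None of the 24 BAF subunit genes with a euploid peak had a missing one, and 0 of 509 missing peaks allows a share of up to 0.589% when 3 counts are taken as the limit, or 0.749% as the Wilson upper bound. For each of the 8 gene lists the interval of its share of missing peaks overlapped that of weighted kept peaks.

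Markers of other cell types were few in the euploid list. Among microglial marker genes, Aif1, which encodes the microglial protein IBA1, had a missing promoter peak (chr17:35172919-35173118, 3.20) that was not present in Ts65Dn;Brwd1+/-. One of 3 oligodendrocyte-lineage genes with a euploid peak, the precursor marker Pdgfra (chr5:75156210-75156432, 3.99), had a missing peak that was absent from both trisomic lists. Adarb2, a marker of interneurons from the caudal ganglionic eminence, had one in an intron (chr13:8388984-8389184, 4.08) that was present in Ts65Dn;Brwd1+/- at 4.08. Of 6 glutamatergic neuron markers with a euploid peak, none had a missing one, and nor did the 2 astrocyte and 2 endothelial genes with a peak. The part of cells other than neurons in the missing peaks was not tested.

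The letters of missing peaks differed from those of kept peaks of the same strength. In the central 200 bases, which could be read for 497 missing and 14982 kept peaks on chromosomes, GC content had a median of 53.0% in missing and 59.5% in weighted kept peaks, and the median number of CpG pairs was 4 against 9. Sequence rich in CpG, with an observed to expected ratio above 0.6 and GC above 50%, was found in 17.7% (14.6 to 21.3) against 45.0%. Even within proximal promoters it was 62.4% (51.7 to 71.9) against 79.2%. Elsewhere it was 8.50% (6.17 to 11.6) against 19.4%.

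Motifs common in CpG-rich promoters were rarer. The SP/KLF motif GGGCGG was in 14.7% (11.8 to 18.1) of missing and 37.0% of weighted kept peaks, and in 43.2% of all euploid peaks. The ETS motif was in 2.01% (1.10 to 3.66) against 6.73%, the EGR motif in 3.42% (2.15 to 5.41) against 8.33% and the CRE in 0.201% (1 peak, 0.0355 to 1.13) against 1.57%. Outside proximal promoters the SP/KLF share was 7.04% (4.95 to 9.93) against 19.2%. Within them SP/KLF, at 51.8% (41.3 to 62.1) against 61.5%, and ETS, at 10.6% (5.67 to 18.9) against 11.8%, differed by less than counting error, and EGR was at 4.71% (1.85 to 11.5) against 11.6%.

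Other motifs varied in direction. MEF2, bound by activity-dependent factors of neurons, matched 14.1% (11.3 to 17.4) of missing and 9.45% of weighted kept peaks, and AP-1, bound by FOS and JUN proteins, 10.9% (8.42 to 13.9) against 7.72%. Outside proximal promoters these differences were smaller, at 16.3% (13 to 20.1) against 12.5% for MEF2 and 11.4% (8.69 to 14.8) against 11.5% for AP-1. The NEUROD-type E-box was rarer in missing peaks outside proximal promoters, at 21.6% (17.9 to 25.8) against 30.2%, and so was RFX, at 3.64% (2.22 to 5.92) against 6.41%. SOX matched 12.3% (9.67 to 15.5) against 8.99% over all regions. It differed by less than counting error outside proximal promoters, at 12.9% (9.97 to 16.4) against 10.9%, and within them, at 9.41% (4.85 to 17.5) against 6.21%. Over all regions the E-box, CTCF, NFI, RFX and POU motifs differed by less than the counting interval of the missing peaks. Among all euploid peaks, AP-1 was in 6.46%, MEF2 in 8.99% and the E-box in 16.3%.

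Repeats took more than 50% of the window in 29 missing peaks (5.84%, 4.09 to 8.25) against 0.672% of weighted kept peaks. In those absent from both trisomic lists it was 8.40% (5.51 to 12.6) and in those present in Ts65Dn;Brwd1+/- 3.47% (1.84 to 6.47). With contigs and these repeat-rich members left out, 468 missing peaks remained, of which 53.4% were present in Ts65Dn;Brwd1+/-, 17.9% were proximal promoters and 12% lay on a euploid SMARCA2/4 peak.

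**Figure D4:**
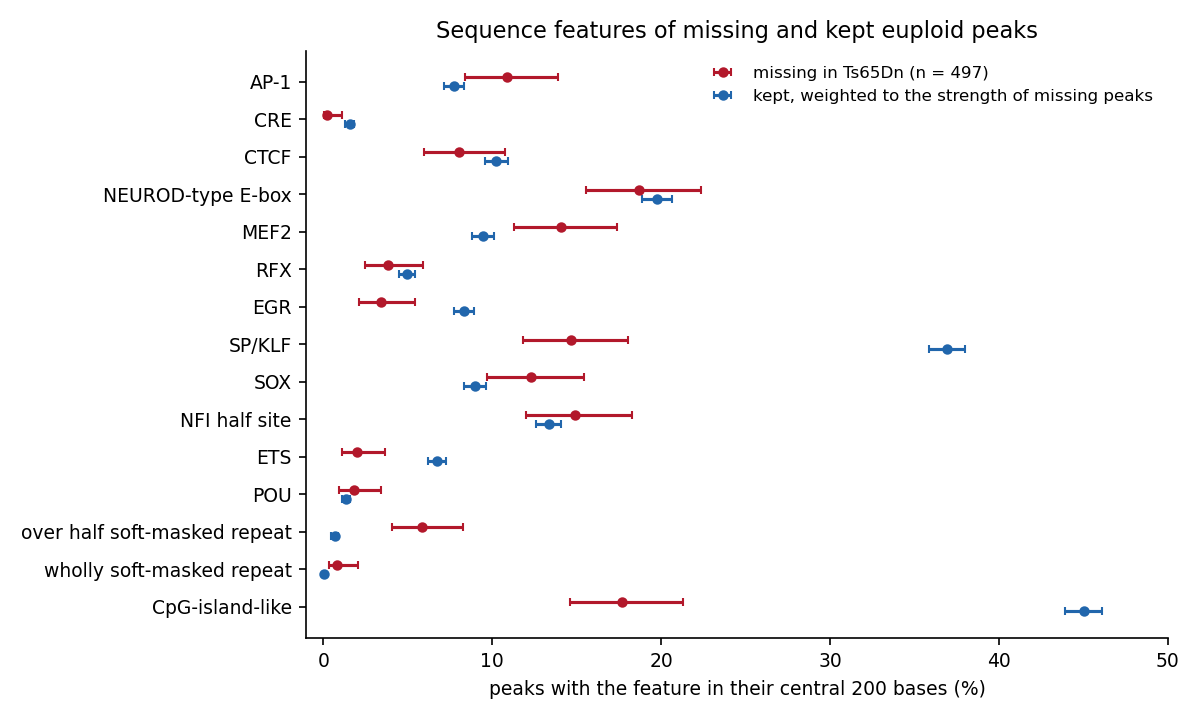
Percentage of peaks whose central 200 bases hold each motif, are rich in CpG or are mostly repeat, for 497 missing peaks (red) and for kept peaks weighted by fold enrichment (blue), with 95% intervals for counting error. Missing peaks are far below kept peaks for SP/KLF (14.7% against 37.0%) and CpG-rich sequence (17.7% against 45.0%) and above them for repeats (5.84% against 0.672%).

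RNA of the genes that hold missing peaks was taken here only from embryonic cultures, a different tissue and age from the ATAC nuclei. The paper also sequenced RNA of adult male hippocampus of these genotypes, which was not used here. The 3 libraries labelled Ts65Dn;Brwd1+/- stand apart from that label. Brwd1 was at 89.4 ± 3.66 CPM (reads per 1000000 assigned reads, with TMM scaling; SD, n = 3) in euploid, 127 ± 2.13 in Ts65Dn and 139 ± 12.3 in the libraries labelled Ts65Dn;Brwd1+/-, where 1 copy fewer than in Ts65Dn is stated. In the same 3 libraries Xist was at 1409 to 1982 CPM against a highest value of 1.12 in the other 6, and the Y-linked Ddx3y at no more than 0.0893 CPM against 46.2 to 58.7, so that sex and genotype cannot be told apart there. Directions drawn from these libraries rest on the label. No culture library held both Xist and Ddx3y at a high level, although the labels call each one pooled male and female.

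Of the 329 genes, 272 passed the filter on low counts. In Ts65Dn against euploid cultures 169 of the 272 (62.1%) passed an adjusted p under 0.05 in edgeR's quasi-likelihood test, where 46.7% of all 17173 genes tested did. More were lower than higher, with 102 lower (37.5%, background 21.1%) and 67 higher (24.6%, background 25.6%). Genes with no missing peak and at least 1 kept peak in the same range of fold enrichment were called in 48.2% (lower in 25.6%). The median log2 fold change was -0.10 in genes with a missing peak and 0.04 in all genes tested.

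Genes with a missing peak were long, and longer genes were more often lower in these cultures, in 16.1% of all genes tested under 20 kb and 44.4% of those over 200 kb. Their median span was 97.6 kb, against 28.5 kb in genes with only kept peaks and 20.2 kb in all genes tested. Among genes over 200 kb, 56.0% of those with a missing peak were lower in Ts65Dn and 48.3% of those with only kept peaks, and under 20 kb it was 22% and 19.8%. With genes of only kept peaks weighted to the same spans, 55.8% were called and 33.3% were lower, closer to the 62.1% and 37.5% of genes with a missing peak. By place of the missing peak, genes with one in the gene body were lower in 60 and higher in 32 of 134, those with one at Promoter1k or Promoter3k lower in 27 and higher in 16 of 67, and those with one at a proximal promoter lower in 18 and higher in 21 of 76. Over all genes tested 21.1% were lower and 25.6% higher, and the proximal promoter class was near these shares.

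Marker RNA of several cell types differed between the genotypes in culture. Of 12 glutamatergic neuron markers 11 were lower in Ts65Dn against euploid, with a summed level of 432 to 1046 CPM against 1558 to 2040, and of 12 interneuron markers 10 were lower (238 to 357 against 746 to 840). Endothelial and pericyte markers summed to 871 to 1136 CPM in Ts65Dn against 211 to 236 in euploid, with 4 of the 8 tested higher, although Cldn5, Pecam1, Tek, Abcb1a, Cdh5 and Eng were under 1 CPM. Astrocyte markers overlapped (3783 to 4390 against 3424 to 4278, with 5 of 11 tested higher and 3 lower). Oligodendrocyte-lineage markers summed to 614 to 715 against 364 to 417 (3 of 10 higher, 1 lower) and microglial ones to 44.4 to 54.2 against 27.5 to 38 (1 of 7 higher, 2 lower), with Cx3cr1, P2ry12, Tmem119, C1qb, C1qc, Trem2, Tyrobp and Spi1 under 1 CPM. The part of these differences in the changes given below was not tested, and a smaller number of neurons and less RNA per neuron cannot be told apart.

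The receptor and synapse lists were mostly lower, as the neuron markers were. In Ts65Dn against euploid, where 21.1% of all genes tested were lower and 25.6% higher, 31 of 39 receptor genes were lower and 1 higher, 34 of 40 channel genes lower and 1 higher, 39 of 45 adhesion genes lower and 2 higher, and 40 of 42 vesicle and scaffold genes lower and 1 higher. Activity-regulated genes went the other way, with 14 of 29 higher and 3 lower. Axon guidance genes were lower in 20 and higher in 9 of 38, neuronal transcription factors lower in 27 and higher in 4 of 40, and BAF subunits lower in 8 and higher in 8 of 27, near the shares over all genes.

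Single genes with a missing peak followed their lists in part. Gria2 was at 639, 557 and 517 CPM in euploid, 289, 234 and 108 in Ts65Dn and 646, 543 and 488 in the libraries labelled Ts65Dn;Brwd1+/-. Every Ts65Dn library was below every other, with a log2 fold change against euploid of -1.44 ± 0.29 (SE, edgeR adjusted p = 0.00294). Gria1, with a missing peak of similar strength, was at 534, 491 and 477 CPM in euploid and 505, 458 and 412 in Ts65Dn. Here the groups overlapped and the difference of -0.13 ± 0.09 on the log2 scale did not pass (edgeR adjusted p = 0.287).

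Syt1 was at 703, 575 and 532 CPM in euploid, 324, 256 and 105 in Ts65Dn and 609, 467 and 450 in the libraries labelled Ts65Dn;Brwd1+/- (log2 fold change in Ts65Dn -1.40 ± 0.33, edgeR adjusted p = 0.00635). Its Ts65Dn libraries overlapped neither other group. Reps2, whose promoter peak was absent from both trisomic lists, was at 72.4, 53.2 and 51.4 CPM in euploid, 26.7, 21.5 and 14.2 in Ts65Dn and 50.8, 49.0 and 44.4 in the libraries labelled Ts65Dn;Brwd1+/- (-1.50 ± 0.21, edgeR adjusted p = 3.96e-04). Groups of 3 and 3 libraries did not overlap in 68.4% of all genes for these libraries against Ts65Dn, and in 45.9% against euploid.

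Several genes with a missing peak were higher in Ts65Dn cultures. Gxylt2 was at 11.9, 10.9 and 12.7 CPM in euploid, 98.1, 120 and 130 in Ts65Dn and 10.6, 16.4 and 12.5 in the libraries labelled Ts65Dn;Brwd1+/-, the largest rise among genes with a missing peak whose libraries did not overlap (3.29 ± 0.16, edgeR adjusted p = 8.2e-07). Gpc6 was at 136, 136 and 129 CPM in euploid, 307, 413 and 401 in Ts65Dn and 63.7, 83.7 and 72.1 in the libraries labelled Ts65Dn;Brwd1+/- (1.49 ± 0.13, edgeR adjusted p = 2.61e-05). Adamtsl1 went from 39.3, 43.5 and 41.2 to 92.1, 111 and 125 CPM (1.40 ± 0.12, edgeR adjusted p = 2.35e-05). In these genes all Ts65Dn libraries were above all others.

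Ndrg1, a stress-regulated gene of myelinating cells with a missing promoter peak (chr15:66969636-66969904, 3.27), was higher in Ts65Dn, at 178, 172 and 173 CPM against 65.3, 64.2 and 66.5 (log2 1.41 ± 0.06, edgeR adjusted p = 3.92e-07). The other genes among the 8 with the largest rise were Pde5a, a cGMP phosphodiesterase (1.71), Fam117a (1.53), Rcn1, a calcium-binding protein of the endoplasmic reticulum (1.30), and the transporter Abcc12 (1.29). Plcb4 was also higher, by 0.71 ± 0.08 on the log2 scale. In these 6 genes, too, the 3 Ts65Dn libraries lay above the 3 euploid ones, where 56.8% of all genes tested had groups that do not overlap.

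Among the 8 genes with the largest fall were Hapln1, a link protein of perineuronal nets (log2 fold change -2.53 ± 0.36), the interneuron gene Adarb2 (-1.88 ± 0.16), the netrin receptor Unc5d (-1.78 ± 0.29), the microglial Aif1 (-1.78 ± 0.32), the Ly6-type protein Lypd6b (-1.77 ± 0.39), the potassium channel subunit Kcng3 (-1.73 ± 0.29) and AW551984 (-1.67 ± 0.11). The eighth, the transmembrane collagen Col13a1 (-1.99 ± 0.42), was at no more than 0.546 CPM in any euploid or Ts65Dn library. Adarb2 was at 23, 20.4 and 24.8 CPM in euploid, 7.10, 6.96 and 4.41 in Ts65Dn and 41.8, 42.8 and 40.1 in the libraries labelled Ts65Dn;Brwd1+/-. Aif1 was at 5.05, 4.30 and 4.05 CPM in euploid, 2.12, 1.04 and 0.662 in Ts65Dn and 0.224 to 0.445 in those libraries, which were the lowest of the 9 for this gene.

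For other named members, Rasal2 (-0.01 ± 0.08), Mtmr3 (0.04 ± 0.06), Tusc3 (-0.08 ± 0.09), Disc1 (0.01 ± 0.30) and Slit3 (-0.06 ± 0.21) gave log2 fold changes in Ts65Dn that did not pass the threshold. Chl1 (-1.34 ± 0.28), Myt1l (-1.29 ± 0.30), Pde4d (-0.43 ± 0.10) and Ncoa2 (-0.29 ± 0.07), each with 2 or more missing peaks, were lower. Without euploid replicate 1 or 2 the calls of Grm7 and Rtn4rl1 were lost (highest adjusted p = 0.0621 and 0.0696 in edgeR), those of Col23a1, Dsp, Kcnq3 and Rfx3 were lost without at least 1 library, and 48 of the 169 calls were lost without some 1 library.

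Against Ts65Dn, the libraries labelled Ts65Dn;Brwd1+/- differed in 191 of the 272 genes (70.2%), against 58.1% of all genes, with 115 higher (42.3%, background 27.6%) and 76 lower (27.9%, background 30.5%). Against euploid it was 85 (31.3%, background 29.2%), with 38 higher (background 14%) and 47 lower (background 15.2%). These comparisons share libraries with the one above. In the comparison with Ts65Dn, genes with only kept peaks were higher in 33.2%, or in 38.2% (36.7 to 39.6) when weighted to the same gene spans. The weighted share lies within the interval of genes with a missing peak (42.3%, 36.6 to 48.2). Split by presence of the missing peak in the adult Ts65Dn;Brwd1+/- list, genes with a peak present there were called in 62.0% (45 higher and 56 lower of 163) in Ts65Dn against euploid cultures, and genes with a peak absent from both lists in 64.0% (23 higher and 50 lower of 114). Over all genes tested that contrast called 46.7%, with 25.6% higher and 21.1% lower.

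**Figure D5:**
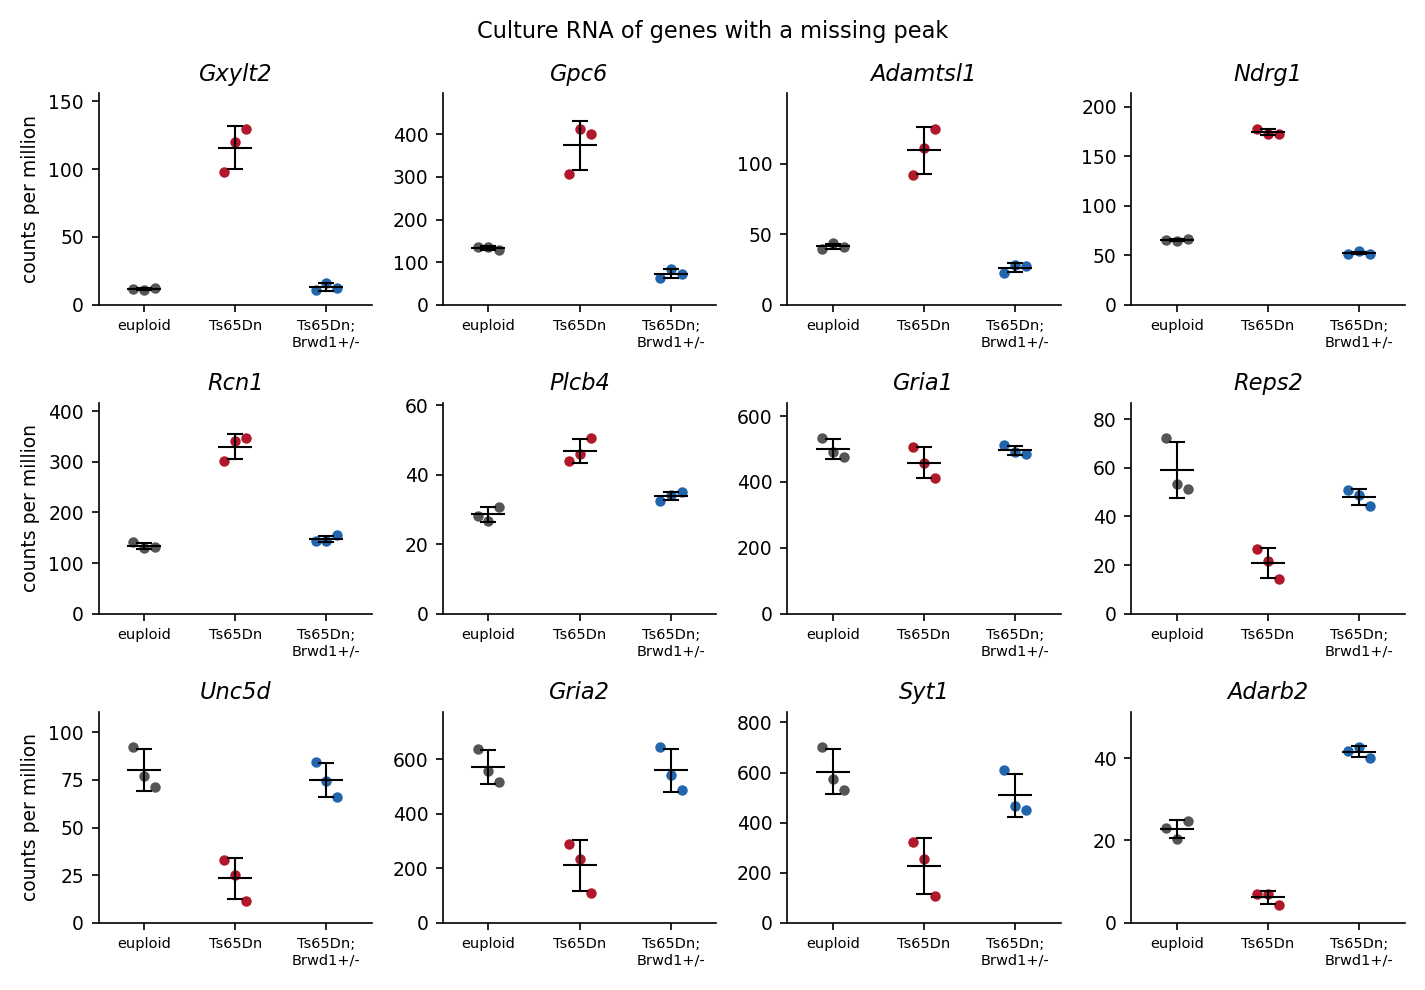
CPM in each culture library for 12 genes that hold a missing ATAC peak. Points are libraries, and the horizontal line with bars is the mean ± SD of 3. Gxylt2, Gpc6, Adamtsl1, Ndrg1, Rcn1 and Plcb4 are higher in Ts65Dn than in euploid libraries, Reps2, Unc5d, Gria2, Syt1 and Adarb2 are lower, and Gria1 overlaps.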

How the data were processed

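Members and gene lists were chosen with earlier results of these data known. The authors aligned ATAC-seq reads to mm10 with HISAT2, kept unique reads, removed duplicates, called peaks with MACS2 and filtered and annotated them. Whether replicates were pooled for calling is not given in the sources used here, and each deposited list gives a linear fold enrichment (ratio) and a q-value per peak. The deposited RNA files hold read counts per gene, with 5 summary lines (37.4 to 40.0% of each file's total) left out here.

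Overlap was 1 base. Kept peaks were weighted by fold enrichment in bins of 0.25. Intervals are Wilson 95%, or normal within bins for weighted shares. Sequence came from RefSeq GRCm38, and nearest starts from GENCODE M21, in which 92.4% of 13107 annotated transcripts had the files' positions. Genes kept by edgeR's filter (17173 of 52636) were fitted on all 9 libraries with TMM scaling, ~genotype, and quasi-likelihood tests with Benjamini-Hochberg adjustment (edgeR 4.0.16, R 4.3.3). DESeq2 1.42.0 was an alternative. Tested on simulated data for Ts65Dn against euploid, the fit recovered 100% of 2-fold and 68% of 1.5-fold changes among 16909 genes.

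Peaks named were the 12 strongest, the 10 strongest proximal promoters, the 12 strongest on a euploid SMARCA2/4 peak, all in the triplicated segment, 6 on each side of the overlap limit, up to 8 genes with 2 or more, and list or marker genes, shortened in the text. Genes named for RNA were the 8 highest and 8 lowest whose libraries did not overlap, and genes of named peaks. The 7 printed sequences were chosen after their values were seen, among short members free of untranslated regions. Per the study's methods, embryos were dissociated individually and samples were not pooled in molecular analyses, whereas the labels call each culture library pooled male and female. P-values measure the spread between these libraries. Deviations of same-numbered euploid and Ts65Dn libraries correlated in each of 3 pairs (r = 0.129, 0.206 and 0.263). A replicate block raised the genes called between these genotypes from 8017 to 8349. Differently numbered libraries were not correlated, so whether the numbers pair the libraries is not known. Some results are not reported here.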

Additional observations from a re-analysis of the deposited data

How the results depend on the processing

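With 0.5 of a euploid peak required to be covered, 588 peaks were missing and 56.0% of them were in Ts65Dn;Brwd1+/-. With euploid q under 1e-6, 313 were missing and 12.5% were proximal promoters. With the Ts65Dn list shortened to the euploid number of peaks, 2710 were missing, of which 82.0% were in Ts65Dn;Brwd1+/-, 20.3% on a euploid SMARCA2/4 peak and 24.7% at proximal promoters, so the number and make-up of missing peaks depend on how deep that list goes. Allowing 500 bases, 55.6% had a Ts65Dn;Brwd1+/- peak and 19.4% a SMARCA2/4 peak. Kept peaks weighted by length as well gave 94.2%, 27.4% and 36.4% for these 3 shares, and unweighted ones 97.7% and, at promoters, 56.4%. Weighting genes with only kept peaks by span, chosen after seeing the data, gave 55.8% called and 33.3% lower. The kept shares were not recomputed under the other definitions of missing or the 500-base windows.

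Leaving out 1 culture library gave 6667 to 7729, 8526 to 9724 and 3707 to 4667 genes called in the 3 contrasts and 137 to 167, 159 to 184 and 62 to 72 with a missing peak. A replicate block gave 179, 198 and 90 of the latter, within 1.5 times the values without it, and 8349, 10268 and 5397 over all genes; of the named genes it added Kitl, Pdgfra and Plxna4. Only the numbers of euploid and Ts65Dn libraries correlated throughout. DESeq2 gave 170, 187 and 79. Peak lists have no replicates, so no test and no interval between animals could be given, and their read depth is not known.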

Other observations

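Some genes had no ATAC peak left. Both euploid peaks of C230088H06Rik and of the predicted gene Gm26870 were missing, and neither trisomic list held any peak of these genes. All 3 euploid peaks between 43 and 44 Mb of chromosome 14, and 3 of 4 between 14 and 15 Mb of chromosome 5, were missing in both trisomic lists.

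The pair of activity-regulated genes with a missing peak went opposite ways in culture. Dusp6, a phosphatase of ERK, was at 30.1, 34.0 and 30.6 CPM in euploid and 47.2, 60.5 and 55.0 in Ts65Dn (log2 fold change 0.78 ± 0.10, edgeR adjusted p = 2.95e-04). Nr4a2, an orphan nuclear receptor, was at 7.67, 6.49 and 6.33 CPM in euploid and 4.25, 3.70 and 3.62 in Ts65Dn (-0.82 ± 0.12, edgeR adjusted p = 6.89e-04). Pdgfra was at 19.2, 16.9 and 20.6 CPM in euploid and 18.6, 11.7 and 13.8 in Ts65Dn, which did not pass (edgeR adjusted p = 0.0869, or 0.0221 with the replicate number as a block), and at 114 to 136 CPM in the libraries labelled Ts65Dn;Brwd1+/-.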
